A study of Mus musculus with 9 samples.

Results

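The genes described here are 10 imprinted growth genes of the mouse, H19, Igf2, Cdkn1c, Dlk1, Meg3, Grb10, Plagl1, Peg3, Mest and Ndn. They were picked by symbol from a table of 57180 genes, with earlier results of these libraries known. Their group differences are therefore given as a description, with no p-value for any 1 of the 10 genes. Counts and names of these genes past a threshold also stand as description and are no evidence for a gene picked this way. Beside them stands the share of all genes past it, or for DESeq2 and the alternative settings the number of all genes called. Of the 10 genes, 9 passed the filter on low counts and entered the fit across 17168 genes, and Dlk1 did not.

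Skin of the BALB/c nude mouse, which lacks a thymus and most of its fur, gave 9 RNA sequencing libraries in 3 groups of 3. UVB-hCOL3A1 skin was irradiated with ultraviolet B on the back every second day over 8 weeks and carries the label hCOL3A1, which the series title ties to type III collagen delivered as mRNA. UVB-Saline skin had the same irradiation and carries the label saline. No group is labelled with a carrier or a control mRNA, so the collagen message and its delivery cannot be told apart. The dose began at 60 mJ/cm2, or 1 minimal erythemal dose, and ended at 240 mJ/cm2, or 4 minimal erythemal doses. NoUVB skin was not irradiated, and no saline is named for it, so irradiation and saline cannot be told apart against it. All 9 libraries come from the same strain, tissue and labelled batch. Tissue was taken at day 28, with no statement of the day counting began, and no sex or age is given. The labels do not say which animal gave which library, so the spread between replicates may be partly technical.

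Library totals were 7640172 to 12927411 estimated counts, or 4274106 to 7402229 without the 18S ribosomal RNA gene Rn18s-rs5. That gene took 34.3% to 55.3% of the counts in 8 libraries and 7.71% in NoUVB 2, so NoUVB 2 stood apart. The log2 differences against NoUVB skin are also given without it for Plagl1, Peg3, Mest, Ndn and Grb10, and for H19, Igf2, Cdkn1c and Meg3 they moved by at most 0.12. Markers of keratinocytes summed to 4760 to 9502 CPM (counts scaled to library size) over all libraries and those of fibroblasts to 5695 to 8779 CPM, so the defining cells of skin were well represented. Markers of skeletal muscle summed to 311 to 1910 CPM, and mouse skin does carry a thin sheet of striated muscle, the panniculus carnosus. In bulk tissue, fewer cells of a type and less RNA per cell cannot be told apart.

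An imprinted gene is read mainly from the chromosome of one parent, according to DNA methylation laid down in egg or sperm. Many imprinted genes set the growth of the fetus and placenta, and most of the ones here are known to fall sharply in level after birth while staying on in some stem or muscle cells. Genes read from the father's copy, such as Igf2, Dlk1, Peg3, Mest, Plagl1 and Ndn, and genes read from the mother's copy, such as H19, Meg3, Cdkn1c and in most tissues Grb10, often lie side by side. H19 and Igf2 share enhancers on chromosome 7, and a control region bound by CTCF decides which of the pair uses them. Dlk1 and Meg3 form a like pair on chromosome 12.

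Igf2, H19, Mest and Meg3 host microRNAs, which bind target messages mainly through the seed, bases 2 to 8, shown here in capitals. The mature sequences of the H19 and Igf2 hosts are shown because those genes had the highest and the lowest differences between UVB-hCOL3A1 and NoUVB skin (RefSeq, GRCm38.p6). The miR-675 pair lies in an exon of H19 on the minus strand (chr7:142577112-142577133 for the 5p arm and chr7:142577078-142577099 for the 3p arm). The miR-483 pair lies in an intron of Igf2, also on the minus strand (chr7:142654968-142654989 and chr7:142654932-142654952).
mmu-miR-675-5p: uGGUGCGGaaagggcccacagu
mmu-miR-675-3p: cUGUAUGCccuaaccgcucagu
mmu-miR-483-5p: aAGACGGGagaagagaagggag
mmu-miR-483-3p: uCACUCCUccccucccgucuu
The 4 seeds all differ. The precursor rows of both microRNAs held 0 counts in all 9 libraries, which allows a level of up to 0.229 to 0.426 CPM (3 counts per library, counting error only). The host values below thus say nothing of the mature microRNAs.

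Promoter windows, running from upstream of a gene's start to just past it, matched 8 of the 10 genes with 15 windows (RefSeq, GRCm38.p6), and H19 and Cdkn1c had no entry. The motifs were searched on both strands. The cAMP response element TGACGTCA was in 2 of the 15 windows, of Meg3 and Peg3, against 588 of 32851 windows of all genes (1.79%). Both genes are shown with it in capitals, together with the TATA motif TATAAA in Meg3 (13.6% of all windows, matched in 2 overlapping places on the 2 strands) and GGGGCCCC, the inner part of the Plagl1 motif, in Peg3 (1.08% of all windows). The Meg3 window is chr12:109540746-109541045 on the plus strand and the Peg3 window is chr7:6730370-6730669 on the minus strand.
Meg3 promoter: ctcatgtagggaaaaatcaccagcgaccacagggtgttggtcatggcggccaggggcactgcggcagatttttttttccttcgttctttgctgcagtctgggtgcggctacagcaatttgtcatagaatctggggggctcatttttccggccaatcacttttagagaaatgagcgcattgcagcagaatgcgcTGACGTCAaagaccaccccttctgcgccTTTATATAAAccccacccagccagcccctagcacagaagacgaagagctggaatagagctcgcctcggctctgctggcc
Peg3 promoter: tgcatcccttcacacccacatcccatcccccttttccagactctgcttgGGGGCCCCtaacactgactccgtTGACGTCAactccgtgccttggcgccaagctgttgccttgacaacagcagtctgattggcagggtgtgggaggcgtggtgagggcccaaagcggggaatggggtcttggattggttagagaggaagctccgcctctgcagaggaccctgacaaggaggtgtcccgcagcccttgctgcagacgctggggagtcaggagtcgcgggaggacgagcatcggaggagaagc
The GC box GGGCGG was in 8 of the 15 windows, of Igf2, Mest, Plagl1, Grb10 and Ndn, against 35.7% of all windows. Some windows of Igf2 and Grb10 lacked it. One Igf2 window of several, at chr7:142657447-142657746 on the minus strand, is shown with its GC boxes in capitals because Igf2 had the lowest log2 difference of the genes in both irradiated groups against NoUVB skin.
Igf2 promoter: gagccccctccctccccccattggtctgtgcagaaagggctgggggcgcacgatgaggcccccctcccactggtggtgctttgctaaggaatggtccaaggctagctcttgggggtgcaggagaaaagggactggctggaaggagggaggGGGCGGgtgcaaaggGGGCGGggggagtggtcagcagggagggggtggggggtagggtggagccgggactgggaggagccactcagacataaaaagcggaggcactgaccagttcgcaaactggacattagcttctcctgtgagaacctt
A match only says that these letters are present in the window. The member windows had a median of 13 CG pairs, against 7 in all 32851 windows.

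In UVB-hCOL3A1 skin H19 averaged 31.8 CPM, against 13.2 CPM in UVB-Saline and 11.4 CPM in NoUVB skin. Also in UVB-hCOL3A1 skin, Grb10 was higher than in both other groups without overlap, and Plagl1 and Ndn were higher than in UVB-Saline skin. In both irradiated groups Igf2 was lower and Meg3 higher than in NoUVB skin, and Cdkn1c was lowest in UVB-Saline skin. None of these differences passed an adjusted p of 0.05 in edgeR's quasi-likelihood test over all genes. The levels of all 10 genes by library show which groups stay apart.

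**Figure D1:**
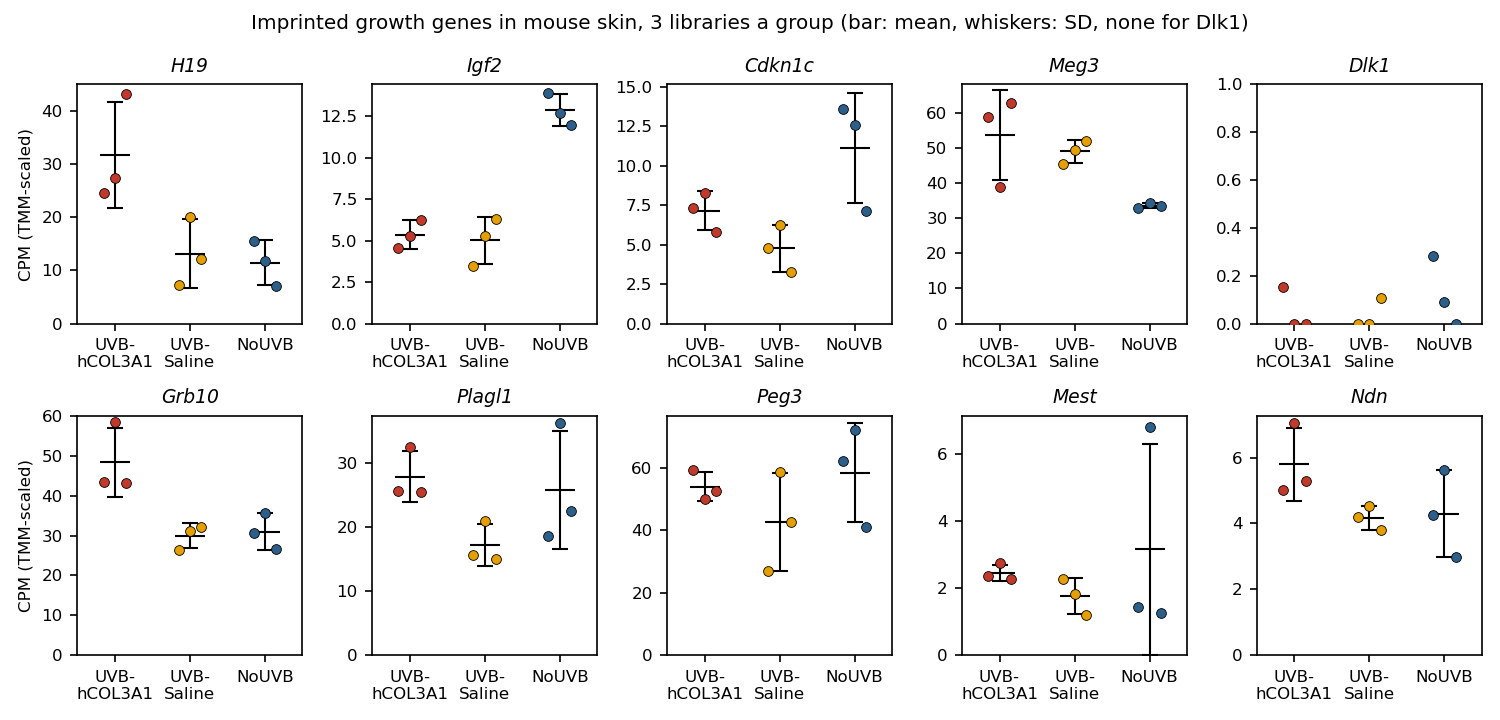
CPM (counts scaled to TMM-adjusted library size) of the 10 imprinted genes in each library, with UVB-hCOL3A1 in red, UVB-Saline in orange and NoUVB in blue; the bar is the mean and the whiskers the SD over 3 libraries, left out for Dlk1. H19 libraries of UVB-hCOL3A1 skin sit at 24.6 to 43.2 CPM, above all others, and Igf2 libraries of NoUVB skin sit at 12.0 to 13.9 CPM, above all others.

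H19 (ENSMUSG00000000031), a long noncoding RNA that restrains growth and hosts miR-675, had 24.6, 27.5 and 43.2 CPM in UVB-hCOL3A1 skin, 7.19, 20.1 and 12.2 CPM in UVB-Saline skin and 15.5, 11.8 and 7.02 CPM in NoUVB skin. All 3 UVB-hCOL3A1 libraries lay above all 6 others, while UVB-Saline and NoUVB libraries overlapped. The means were 31.8 ± 9.99, 13.2 ± 6.53 and 11.4 ± 4.24 CPM (SD, n = 3 each). The fitted log2 difference was 1.25 ± 0.40 (SE) for UVB-hCOL3A1 against UVB-Saline, 1.49 ± 0.41 against NoUVB, and 0.23 ± 0.42 for UVB-Saline against NoUVB. The last of these ran from -0.23 to 0.53 over the alternative settings, leaving out single libraries included, so it had no steady sign.

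H19 was high in libraries where skeletal muscle markers were high. The summed CPM of 16 such markers, among them the actin Acta1, the creatine kinase Ckm and fast myosins, was 1172, 1516 and 1910 in UVB-hCOL3A1 skin, 311, 979 and 790 in UVB-Saline skin and 1425, 471 and 438 in NoUVB skin. None of the 16 was at 0 in all libraries. Across the 9 libraries, log2 H19 and the log2 sum had Pearson's r = 0.91 and Spearman's rho = 0.93, given as a description because the gene was chosen with these libraries in view and the libraries share tissue make-up and depth. Without the 2 libraries farthest from the median sum r was 0.82, and over deviations from the group means it was 0.86. Igf2 had r = -0.03 with the same sum over the 9 libraries and 0.77 over deviations from the group means.

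As a percent of the muscle marker sum, a measure added after seeing the data, H19 was 2.1%, 1.81% and 2.26% in UVB-hCOL3A1 skin, 2.31%, 2.06% and 1.55% in UVB-Saline skin and 1.09%, 2.51% and 1.6% in NoUVB skin. All 3 groups overlapped. The difference of the groups' mean log2 values for UVB-hCOL3A1 against UVB-Saline was 0.07 by this measure and 1.35 in CPM. For UVB-hCOL3A1 against NoUVB it was 0.33 by this measure and 1.50 in CPM, and for UVB-Saline against NoUVB 0.25 by this measure and 0.16 in CPM. The part of muscle in the H19 values was not tested. NoUVB 1 showed the lowest share, with a high muscle sum of 1425 CPM and H19 at only 15.5 CPM. Of the 15 muscle markers that were tested, 11 were higher in UVB-hCOL3A1 than in UVB-Saline libraries without overlap, against 8.95% of all genes, with a median log2 difference of 1.15 against -0.02 over all genes. In edgeR 0 passed an adjusted p of 0.05 and 4 an unadjusted one, against 11.3% of all genes. DESeq2 called 1, among 173 genes it called in all, and limma voom 0. Markers of satellite cells and myoblasts, the cells in which H19 is known to act in muscle repair, summed to 5.83 to 10.7 CPM in UVB-hCOL3A1 skin, 3.49 to 7.56 CPM in UVB-Saline skin and 3.08 to 8.81 CPM in NoUVB skin. Of these 10 markers, 2 passed the filter on low counts.

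**Figure D2:**
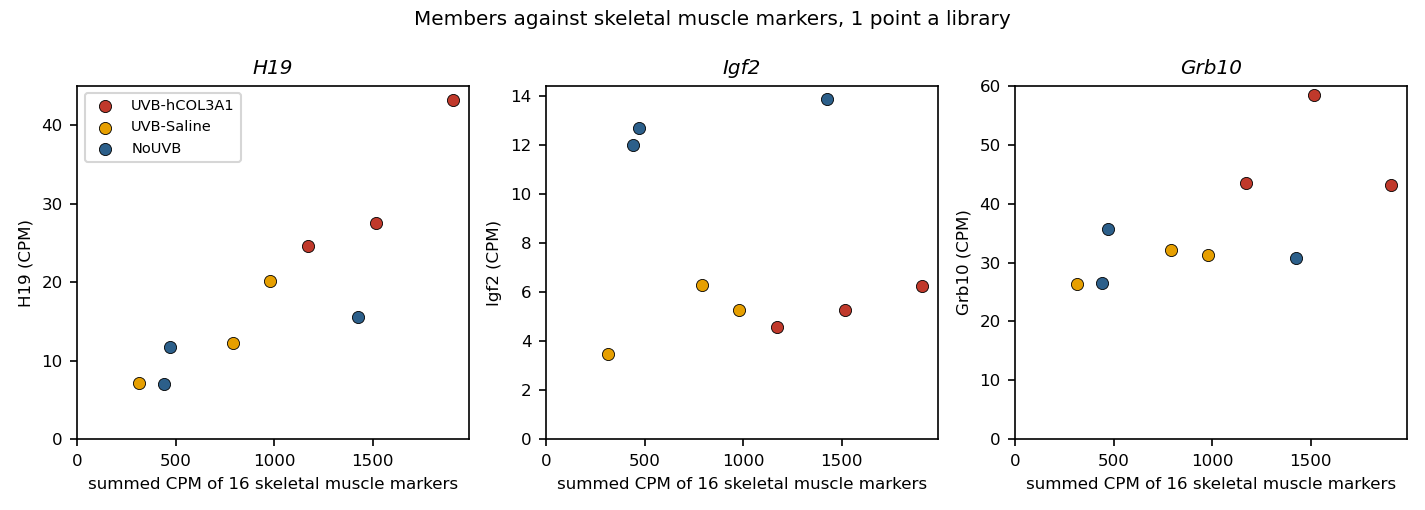
CPM of H19, Igf2 and Grb10 (vertical axes) against the summed CPM of 16 skeletal muscle markers (horizontal axes), 1 point a library in the group colours. On log2 values r is 0.91 for H19 over all libraries and 0.86 within groups, and for Igf2 it is -0.03 over all libraries and 0.77 within groups, with irradiated libraries below NoUVB ones.

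The 5 genes whose log2 CPM was most like that of H19 over the 9 libraries, among genes averaging at least 1 on the log2 CPM scale, were Fhl1 (r = 0.984), Des (0.969), Sdha (0.968), Srl (0.966) and Hspb6 (0.963). Fhl1 is a LIM protein abundant in striated muscle, Des is the muscle intermediate filament desmin and a member of the marker list, Srl binds calcium in the sarcoplasmic reticulum, Hspb6 is a small heat shock protein of muscle, and Sdha is the flavoprotein of mitochondrial complex II. Fhl1 had 59.6, 65.6 and 86.6 CPM in UVB-hCOL3A1 skin, 22.8, 43.5 and 27.0 CPM in UVB-Saline skin and 37.8, 28.2 and 21.5 CPM in NoUVB skin, with the same libraries on top as for H19. The 15 tested muscle markers had a median r of 0.88 with H19 (0.24 to 0.97), against -0.02 over all genes. These likenesses rest on 9 libraries that share group, depth and tissue make-up, and between 2 and 4 of the 5 genes stayed on the list when single libraries were left out.

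Igf2 (ENSMUSG00000048583) encodes insulin-like growth factor 2, a fetal growth factor that signals through the receptors Igf1r and Insr and is cleared by Igf2r. It had 4.57, 5.27 and 6.26 CPM in UVB-hCOL3A1 skin, 3.49, 5.26 and 6.29 CPM in UVB-Saline skin and 13.9, 12.7 and 12.0 CPM in NoUVB skin. All 6 irradiated libraries lay below all 3 NoUVB libraries, and the irradiated groups overlapped. On the fitted log2 scale the difference was -1.27 ± 0.21 (SE) for UVB-hCOL3A1 against NoUVB, -1.36 ± 0.21 for UVB-Saline against NoUVB, and 0.09 ± 0.22 for UVB-hCOL3A1 against UVB-Saline. These levels rest on 34 to 64 estimated counts in irradiated libraries and 98 to 142 in NoUVB libraries.

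The pair did not share 1 order of groups: Igf2 libraries of both irradiated groups lay apart from NoUVB libraries, whereas H19 libraries of UVB-hCOL3A1 skin lay apart from both other groups. Between log2 CPM of H19 and of Igf2, r was -0.24 over the 9 libraries and 0.73 over deviations from the group means. The 8 Schwann and nerve markers summed to 74.0 to 90.6 CPM in UVB-hCOL3A1 skin, 79.7 to 103 CPM in UVB-Saline skin and 99.3 to 186 CPM in NoUVB skin. Hair follicle markers summed to 2513 to 6021 CPM in UVB-hCOL3A1 skin, 1218 to 8582 CPM in UVB-Saline skin and 6012 to 11481 CPM in NoUVB skin, with no marker at 0 in every library. Over the 9 libraries Igf2 had r = 0.67 with the Schwann and nerve sum and 0.29 with the hair follicle sum. Within groups these values were 0.15 and -0.76. The part of these cell types in the Igf2 difference was not tested. In the GENCODE M21 annotation (GRCm38), 3596 exon bases of Igf2 are shared with the readthrough gene Gm49394, which held 0 counts in all libraries.

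Cdkn1c (ENSMUSG00000037664), a maternally read inhibitor of cyclin-dependent kinases that holds cells out of the cycle, lies in a neighbouring imprinted domain of chromosome 7. It had 7.32, 8.28 and 5.83 CPM in UVB-hCOL3A1 skin, 4.82, 6.25 and 3.25 CPM in UVB-Saline skin and 13.6, 12.6 and 7.12 CPM in NoUVB skin. UVB-Saline libraries lay below all NoUVB libraries, and UVB-hCOL3A1 libraries overlapped both other groups. Its fitted log2 difference was -1.20 ± 0.29 (SE) for UVB-Saline against NoUVB, -0.63 ± 0.28 for UVB-hCOL3A1 against NoUVB and 0.57 ± 0.29 for UVB-hCOL3A1 against UVB-Saline. Cdkn1c ran against interfollicular keratinocyte markers over the 9 libraries (Pearson's r = -0.84 and Spearman's rho = -0.87, as a description; r = -0.81 without the 2 farthest libraries, -0.68 within groups). Those markers summed to 5555 to 7667 CPM in UVB-hCOL3A1 skin, 6487 to 9502 CPM in UVB-Saline skin and 4760 to 6975 CPM in NoUVB skin. Cdkn1c also had r = 0.79 with adipocyte markers (0.70 within groups) and 0.79 with hair follicle markers (0.77 within groups). An antisense gene, Gm44732, shares 625 exon bases with Cdkn1c and held 0 to 27 counts. With no strand setting stated, reads of the 2 cannot be told apart.

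Meg3 (ENSMUSG00000021268), a long noncoding RNA read from the mother's copy and known as a growth suppressor, had 58.9, 39.0 and 62.9 CPM in UVB-hCOL3A1 skin, 45.5, 49.5 and 52.1 CPM in UVB-Saline skin and 33.0, 34.3 and 33.4 CPM in NoUVB skin. All 6 irradiated libraries lay above the NoUVB libraries, whose SD was 0.685 CPM (n = 3), and the irradiated groups overlapped. The log2 difference from the fit was 0.68 ± 0.16 (SE) for UVB-hCOL3A1 against NoUVB, 0.55 ± 0.16 for UVB-Saline against NoUVB and 0.13 ± 0.16 for UVB-hCOL3A1 against UVB-Saline. Its partner Dlk1 (ENSMUSG00000040856), a transmembrane relative of Notch ligands that holds back fat cell formation, had 2, 0 and 0 counts in UVB-hCOL3A1 libraries, 0, 0 and 1 in UVB-Saline libraries and 2, 1 and 0 in NoUVB libraries. Dlk1 was at or under 3 counts throughout, so no difference was detectable at this depth. In the M21 annotation Meg3 shares 1228 exon bases with the opposite-strand noncoding gene Gm26906, which is not among the counted genes. With no strand setting stated, part of the Meg3 counts may belong to Gm26906.

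The noncoding RNAs Rian and Mirg and the retrotransposon-derived gene Rtl1, of the same region, also had their lowest libraries in NoUVB skin. Rian, which hosts small nucleolar RNAs, had 30.8, 24.4 and 28.2 CPM in UVB-hCOL3A1 skin, 19, 24.7 and 20.5 CPM in UVB-Saline skin and 11.9, 12.8 and 17.5 CPM in NoUVB skin. NoUVB libraries lay below all irradiated ones (log2 difference 0.98 ± 0.17 (SE), edgeR adjusted p = 0.0854 for UVB-hCOL3A1 against NoUVB; 0.60 ± 0.17, adjusted p = 0.353 for UVB-Saline against NoUVB). Mirg, which hosts microRNAs, had 2.13, 2.35 and 3.45 CPM in UVB-hCOL3A1 skin, 1.74, 3.29 and 3.04 CPM in UVB-Saline skin and 0.994, 1.34 and 1.15 CPM in NoUVB skin (1.15 ± 0.34, adjusted p = 0.232, and 1.19 ± 0.34, adjusted p = 0.353). Rtl1 had 2.21, 1.98 and 2.59 CPM in UVB-hCOL3A1 skin, 0.821, 1.07 and 2.49 CPM in UVB-Saline skin and 0.710, 0.625 and 0.769 CPM in NoUVB skin (1.67 ± 0.43, adjusted p = 0.191, and 1.03 ± 0.45, adjusted p = 0.517). These 3 genes were named for having the smallest p-values of their list, and none passed in edgeR. Of all genes, 10.7% were higher without overlap in UVB-hCOL3A1 and 7.18% in UVB-Saline than in NoUVB skin. In NoUVB libraries Rtl1 rests on 5 to 8 counts and Mirg on 7 to 15. NoUVB 3 and UVB-Saline 1 held nearly the same Rtl1 count (8 and 8.04), so only library scaling sets those 2 apart. Dio3, a thyroid hormone deiodinase of the same region named after its values were seen, had 1.22, 0.847 and 0.432 CPM in UVB-hCOL3A1 skin, 1.03, 0.822 and 0.542 CPM in UVB-Saline skin and 1.42, 1.07 and 0.481 CPM in NoUVB skin. All groups overlapped for Dio3, and its mean was highest in NoUVB skin (log2 difference -0.17 ± 0.51 (SE), edgeR adjusted p = 0.933 for UVB-hCOL3A1 against NoUVB; -0.26 ± 0.52, adjusted p = 0.912 for UVB-Saline against NoUVB). Markers of myeloid and lymphoid cells summed to 346 to 425 CPM in UVB-hCOL3A1 skin, 132 to 360 CPM in UVB-Saline skin and 177 to 220 CPM in NoUVB skin. Their part in the Meg3 values was not tested.

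**Figure D3:**
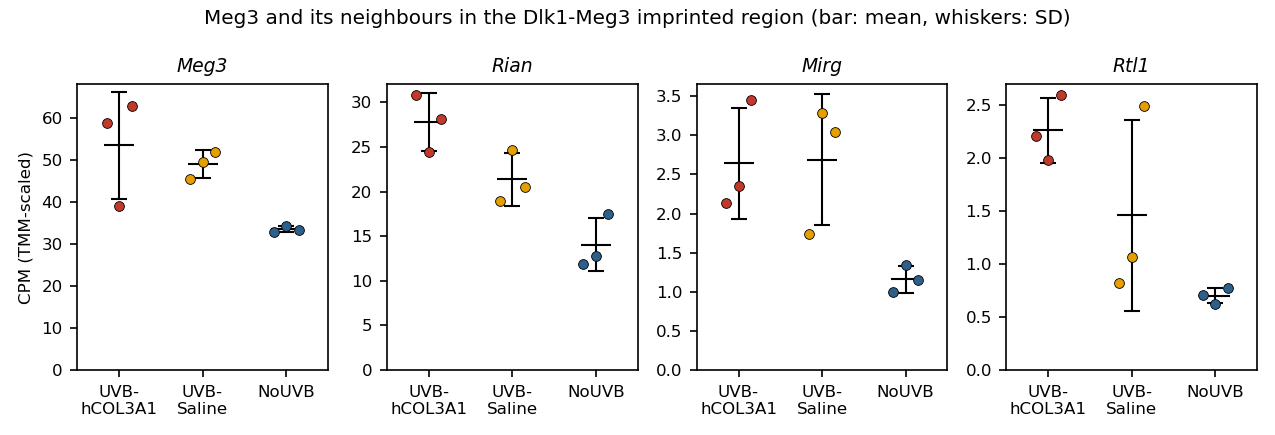
CPM of Meg3, Rian, Mirg and Rtl1 in each library, with the mean (bar) and SD (whiskers) of 3 libraries a group. In all 4 panels the NoUVB libraries sit below every library of both irradiated groups. Of all genes, 10.7% were higher without overlap in UVB-hCOL3A1 and 7.18% in UVB-Saline than in NoUVB skin. Rian, Mirg and Rtl1 were picked for the smallest p-values of their list, and Dio3 of the same region, whose groups overlapped, is not shown. For Rtl1 this rests on library scaling alone between NoUVB 3 (8 counts) and UVB-Saline 1 (8.04 counts).

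Grb10 (ENSMUSG00000020176), an adaptor that binds the insulin and insulin-like growth factor receptors and dampens their signal, had 43.5, 58.4 and 43.2 CPM in UVB-hCOL3A1 skin, 26.3, 31.2 and 32.2 CPM in UVB-Saline skin and 30.7, 35.7 and 26.5 CPM in NoUVB skin. UVB-hCOL3A1 libraries lay above all 6 others, and the other 2 groups overlapped. In the fit, the log2 difference was 0.69 ± 0.15 (SE) for UVB-hCOL3A1 against UVB-Saline, 0.64 ± 0.15 against NoUVB and -0.05 ± 0.16 for UVB-Saline against NoUVB. Without NoUVB 2 the last 2 were 0.77 and 0.06. Fibroblast markers had the same order, with 12 of them summing to 7304 to 8779 CPM in UVB-hCOL3A1 skin, 5695 to 6133 CPM in UVB-Saline skin and 6056 to 7161 CPM in NoUVB skin. Grb10 had r = 0.79 with the fibroblast sum over the 9 libraries, 0.37 without the 2 farthest libraries and 0.22 within groups. Within groups, its r over all marker lists ran from -0.12 for interfollicular keratinocyte to 0.85 for adipocyte markers. The part of these cell types in the Grb10 difference was not tested.

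Plagl1 (ENSMUSG00000019817), a zinc finger transcription factor that regulates other imprinted genes, had 25.7, 32.6 and 25.5 CPM in UVB-hCOL3A1 skin, 15.6, 21.0 and 15.1 CPM in UVB-Saline skin and 18.7, 36.3 and 22.6 CPM in NoUVB skin. UVB-hCOL3A1 and UVB-Saline libraries did not overlap, and NoUVB libraries overlapped both. This gave a fitted log2 difference of 0.69 ± 0.24 (SE) for UVB-hCOL3A1 against UVB-Saline, 0.10 ± 0.24 for UVB-hCOL3A1 against NoUVB and -0.59 ± 0.24 for UVB-Saline against NoUVB, and without NoUVB 2 the last 2 became 0.43 and -0.27. Plagl1 was high in libraries where adipocyte markers were high (Pearson's r = 0.91 and Spearman's rho = 0.80, as a description; r = 0.74 without the 2 farthest libraries, 0.84 within groups). The 10 adipocyte markers summed to 816 to 1373 CPM in UVB-hCOL3A1 skin, 494 to 732 CPM in UVB-Saline skin and 658 to 1672 CPM in NoUVB skin, and NoUVB 2 was highest for both Plagl1 and the markers. The relation was not particular to Plagl1. With the same sum r was 0.79 for Cdkn1c, 0.75 for Mest and 0.74 for Peg3 and for Ndn, and it ran down to -0.38 for Meg3.

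Peg3 (ENSMUSG00000002265), a zinc finger protein tied to cell death and maternal behaviour in mice, had 59.3, 50.1 and 52.7 CPM in UVB-hCOL3A1 skin, 27.1, 58.6 and 42.6 CPM in UVB-Saline skin and 62.1, 72.2 and 41.2 CPM in NoUVB skin. All groups overlapped. The fitted log2 difference was 0.34 ± 0.28 (SE) for UVB-hCOL3A1 against UVB-Saline, -0.11 ± 0.28 for UVB-hCOL3A1 against NoUVB and -0.45 ± 0.28 for UVB-Saline against NoUVB. Leaving out NoUVB 2 gave 0.07 and -0.27 for the last 2. Peg3 shares the cAMP response element printed above with Meg3, and the part of that element in the values of the 2 genes was not tested.

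Mest (ENSMUSG00000051855), a hydrolase-like protein linked to fat cell size, had 2.36, 2.73 and 2.27 CPM in UVB-hCOL3A1 skin, 2.26, 1.81 and 1.19 CPM in UVB-Saline skin and 1.42, 6.79 and 1.25 CPM in NoUVB skin. UVB-hCOL3A1 and UVB-Saline libraries failed to overlap only by the gap between 2.27 and 2.26 CPM, on 10.96 to 31.08 estimated counts. Before rounding, these 2 libraries held 20.76 (UVB-hCOL3A1 3) and 21.96 (UVB-Saline 1) counts. The gap lies within the rounding, so the 2 groups are not taken as apart for Mest. NoUVB 2 alone set the NoUVB mean. On the fitted log2 scale the difference was 0.48 ± 0.60 (SE) for UVB-hCOL3A1 against UVB-Saline, -0.41 ± 0.57 for UVB-hCOL3A1 against NoUVB and -0.88 ± 0.60 for UVB-Saline against NoUVB, and without NoUVB 2 the last 2 became 0.89 and 0.40. Copg2 lies on the opposite strand, shares 912 exon bases with Mest and held 175 to 360 counts, so part of the Mest counts may belong to it.

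Ndn (ENSMUSG00000033585), which encodes necdin, a protein that holds back cell division in neurons and other resting cells, had 5.03, 7.06 and 5.29 CPM in UVB-hCOL3A1 skin, 4.21, 4.52 and 3.79 CPM in UVB-Saline skin and 4.26, 5.63 and 2.98 CPM in NoUVB skin. UVB-hCOL3A1 libraries lay above UVB-Saline libraries, and NoUVB libraries overlapped both. Its fitted log2 difference was 0.47 ± 0.25 (SE) for UVB-hCOL3A1 against UVB-Saline, 0.43 ± 0.25 for UVB-hCOL3A1 against NoUVB and -0.04 ± 0.25 for UVB-Saline against NoUVB. The last 2 were 0.70 and 0.22 without NoUVB 2.

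**Figure D4:**
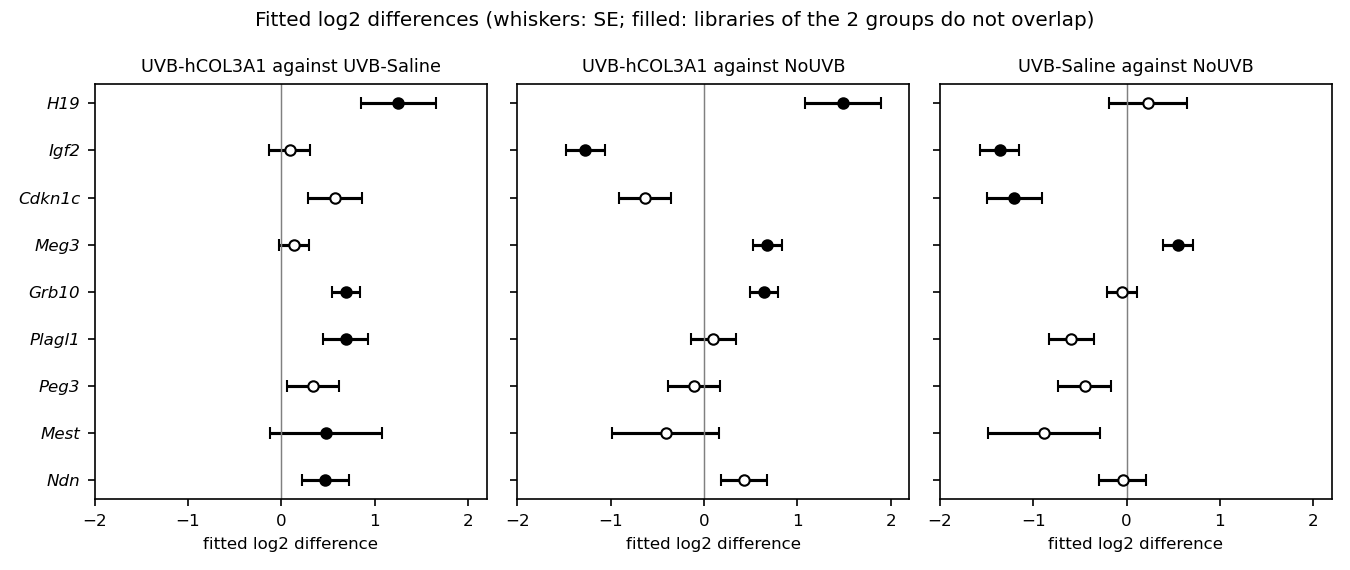
Fitted log2 differences of the 9 tested genes in the 3 comparisons (horizontal axis, positive means higher in the group named first). Whiskers are the SE, and filled points mark genes whose libraries do not overlap between the 2 groups on rounded counts. For Mest in UVB-hCOL3A1 against UVB-Saline, that gap lies within the rounding. All 9 points lie above 0 for UVB-hCOL3A1 against UVB-Saline, though that of Igf2 changed sign in 2 of 19 alternative settings. Against NoUVB the points of H19 and Meg3 lie above 0 and those of Igf2 and Cdkn1c below it. The H19 point for UVB-Saline against NoUVB had no steady sign over those settings.

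UVB-hCOL3A1 against UVB-Saline sets the hCOL3A1 label against the saline label in irradiated skin. Here edgeR called 0 of 9 tested genes and 0.0% of all genes. At an unadjusted p of 0.05 there were 3 of 9, against 11.3% of all genes. DESeq2 called 1 (Grb10), among 173 genes it called in all, and limma voom 0. All 9 differences were positive, with a median of 0.48 against -0.02 over all genes. That of Igf2 was 0.09 ± 0.22 (SE) and changed sign in 2 of 19 alternative settings. On rounded counts the groups did not overlap for 5 genes, all higher (H19, Grb10, Plagl1, Mest and Ndn), and for Mest the gap lay within the rounding. Of all genes, 17.3% did not overlap, 8.95% higher and 8.33% lower. A positive difference was also found for 10 of 10 adipocyte, 12 of 12 fibroblast and 14 of 15 skeletal muscle markers. The count was 7 of 8 for smooth muscle and pericyte, 6 of 7 for myeloid and lymphoid and 5 of 8 for blood endothelium markers. Satellite cell and myoblast markers had 1 of 2, Schwann and nerve 2 of 8, hair follicle 1 of 9 and interfollicular keratinocyte 0 of 10. The part of these cell types in the values of the imprinted genes was not tested.

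For UVB-hCOL3A1 against NoUVB, 0 of 9 were called by edgeR, against 0.0408% of all genes, with 5 of 9 at an unadjusted p of 0.05 against 11.8%. DESeq2 called 4 (H19, Grb10 and Meg3 higher, Igf2 lower), among 269 genes it called in all, and limma voom 0. The differences were positive for 5 and negative for 4 genes, with a median of 0.10 against -0.01 over all genes. Groups did not overlap for 3 genes that were higher (H19, Meg3 and Grb10) and 1 that was lower (Igf2). Of all genes, 21.4% did not overlap, 10.7% higher and 10.7% lower. Without NoUVB 2 the median was 0.70, so that value rests on 1 library. Without it, Plagl1, Mest and Ndn also did not overlap, which made 6 genes higher and 1 lower, against 16.1% and 16.2% of all genes.

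For UVB-Saline against NoUVB, which sets skin labelled with irradiation and saline against skin whose labels name neither, 0 of 9 were called by edgeR, against 0.0175% of all genes, with 4 of 9 at an unadjusted p of 0.05 against 9.54%. DESeq2 called 2 (Igf2 and Cdkn1c, both lower), among 96 genes it called in all, and limma voom 0. The differences were negative for 7 and positive for 2 genes, with a median of -0.45 against 0.01 over all genes, and without NoUVB 2 the median was 0.06. Groups did not overlap for 1 gene that was higher (Meg3) and 2 that were lower (Igf2 and Cdkn1c). Of all genes, 13.8% did not overlap, 7.18% higher and 6.61% lower. The 3 comparisons share libraries, so their values are not independent of each other.

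Levels can be set between genes only per length. On CPM per kilobase of exon (M21 gene lengths, matched by gene identifier), H19 stood at 12.9 ± 4.06 in UVB-hCOL3A1 skin, 5.36 ± 2.65 in UVB-Saline skin and 4.65 ± 1.72 in NoUVB skin (SD, n = 3 each). In UVB-hCOL3A1 skin Grb10 (5.32), Peg3 (4.06), Plagl1 (3.57), Cdkn1c (3.5) and Meg3 (2.96) followed. In NoUVB skin Cdkn1c stood at 5.45 ± 1.72, H19 at 4.65 ± 1.72 and Peg3 at 4.39 ± 1.19, which is within their spread. Igf2 was low per length, at 0.938 ± 0.148 in UVB-hCOL3A1 skin, 0.876 ± 0.247 in UVB-Saline skin and 2.25 ± 0.168 in NoUVB skin, and Mest was lowest of the tested genes in all 3 groups.

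Of 52 other imprinted genes in the table, 39 were tested, of which 22 had a positive log2 difference for UVB-hCOL3A1 against UVB-Saline, 21 for UVB-hCOL3A1 against NoUVB and 15 for UVB-Saline against NoUVB. In each comparison edgeR called 0 (6 at an unadjusted p of 0.05 for UVB-hCOL3A1 against UVB-Saline, 8 for UVB-hCOL3A1 against NoUVB and 6 for UVB-Saline against NoUVB, where the shares of all genes were 11.3%, 11.8% and 9.54%). DESeq2 called 1, Rian, as higher in UVB-hCOL3A1 than in NoUVB skin, among 269 genes it called there in all, and limma voom called 0. Their median log2 differences were 0.05, 0.03 and -0.04 in that order, against -0.02, -0.01 and 0.01 over all genes. Against NoUVB skin, the groups did not overlap for 4 of the 39 that were higher and 2 that were lower, in each irradiated group. Between UVB-hCOL3A1 and UVB-Saline these were 5 and 3. Of all genes, 17.3%, 21.4% and 13.8% did not overlap, in the order of comparisons above. Apart from Rian, Mirg and Rtl1, the smallest p-values belonged to Gnas, a stimulatory G protein (0.36 ± 0.12 (SE), edgeR adjusted p = 0.312 for UVB-hCOL3A1 against UVB-Saline), and Ppp1r9a, an actin-binding protein (-0.64 ± 0.21, edgeR adjusted p = 0.278 for UVB-hCOL3A1 against NoUVB).

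Of 22 genes of the insulin-like growth factor axis, made up mainly of receptors, binding proteins and proteases and with Igf2r also counted among the imprinted genes, 20 were tested and edgeR called 0 in each comparison. At an unadjusted p of 0.05 there were 5 for UVB-hCOL3A1 against UVB-Saline, 6 for UVB-hCOL3A1 against NoUVB and 7 for UVB-Saline against NoUVB, against 11.3%, 11.8% and 9.54% of all genes. DESeq2 called Igfbp5 in the first, among 173 genes in all, and Igfbp2 and Stc1 in the second, among 269, and limma voom called 0. The median log2 differences were 0.27, 0.07 and -0.23 in that order, against -0.02, -0.01 and 0.01 over all genes. Igfbp5, a binding protein that holds insulin-like growth factors in the matrix, had 450, 611 and 377 CPM in UVB-hCOL3A1 skin, 263, 306 and 258 CPM in UVB-Saline skin and 388, 657 and 395 CPM in NoUVB skin. UVB-Saline libraries were below both other groups (0.80 ± 0.23 (SE), edgeR adjusted p = 0.294 for UVB-hCOL3A1 against UVB-Saline; -0.80 ± 0.23, adjusted p = 0.359 for UVB-Saline against NoUVB).

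Igfbp2, another binding protein, had 69.8, 64.5 and 78.4 CPM in UVB-hCOL3A1 skin, 31.1, 64.0 and 51.7 CPM in UVB-Saline skin and 24.7, 24.7 and 40.5 CPM in NoUVB skin (1.24 ± 0.28 (SE), edgeR adjusted p = 0.164 for UVB-hCOL3A1 against NoUVB). Igfbp2 was lowest on average in NoUVB skin, where Igf2 was highest, while Stc1, a stanniocalcin that inhibits the binding protein protease Pappa, was highest there. Stc1 had 4.88, 4.42 and 3.99 CPM in UVB-hCOL3A1 skin, 6.98, 4.60 and 5.20 CPM in UVB-Saline skin and 11.5, 8.93 and 7.60 CPM in NoUVB skin (-1.06 ± 0.22, edgeR adjusted p = 0.144 for UVB-hCOL3A1 against NoUVB). The protease Htra1 (0.52 ± 0.15, edgeR adjusted p = 0.274 for UVB-hCOL3A1 against UVB-Saline) and the RNA-binding protein Igf2bp2, which binds Igf2 messages (0.98 ± 0.29, edgeR adjusted p = 0.238 for UVB-hCOL3A1 against NoUVB), completed the 5 with the smallest p-values.

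The 7 cyclin-dependent kinase inhibitors other than Cdkn1c were all tested, and edgeR, DESeq2 and limma voom called 0 in each comparison (at an unadjusted p of 0.05 in edgeR, 2 for UVB-hCOL3A1 against UVB-Saline, 0 for UVB-hCOL3A1 against NoUVB and 1 for UVB-Saline against NoUVB, beside 11.3%, 11.8% and 9.54% of all genes). Cdkn1a, a target of p53 that stops the cycle after DNA damage, had 50.3, 54.0 and 48.4 CPM in UVB-hCOL3A1 skin, 70.2, 61.7 and 63.0 CPM in UVB-Saline skin and 49.1, 50.5 and 53.4 CPM in NoUVB skin. UVB-Saline libraries lay above both other groups (-0.35 ± 0.09 (SE), edgeR adjusted p = 0.232 for UVB-hCOL3A1 against UVB-Saline; 0.35 ± 0.09, adjusted p = 0.319 for UVB-Saline against NoUVB), whereas the mean of Cdkn1c was lowest there. For Cdkn2c, Cdkn2b, Cdkn1b and Cdkn2d the smallest edgeR adjusted p in any comparison was 0.422.

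**Figure D5:**
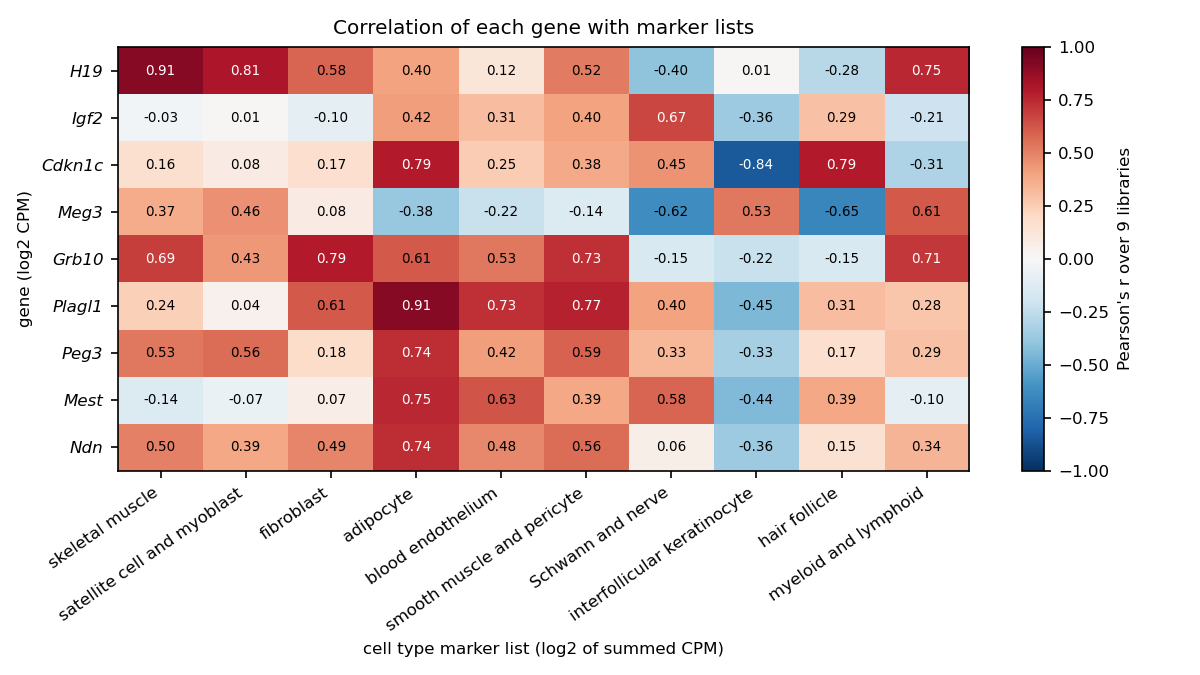
Pearson's r over 9 libraries between log2 CPM of each tested gene (rows) and log2 summed CPM of each cell type marker list (columns), with red for positive and blue for negative values. Of these 90 values the highest is 0.91, for H19 with skeletal muscle and for Plagl1 with adipocytes. The lowest is -0.84, for Cdkn1c with interfollicular keratinocytes. The values are a description over libraries that share tissue and depth.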

How the data were processed

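Total RNA of each skin sample was isolated with TRIzol, and both ends of each fragment were read for 150 bp, per the labels' protocols. Per the submitters' processing notes, the tools were RSEM 1.3.3, STAR 2.7.11b, Bowtie2 2.5.4, fastp 0.23.4 and DESeq2 1.44.0, with the build GRCm39. Their roles, the annotation and whether counting used strand are not stated in these sources. The deposited table holds estimated counts of 57180 genes, made by the authors, with 11.1% to 14% of values per library not whole, and these were rounded here. Genes without a symbol, 525 in all, held 0.0384% of counts. Libraries were grouped by their titles, 3 a group, and no 2 were identical.

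Genes were kept by filterByExpr (17168), scaled by TMM and tested with edgeR 4.0.16 in R 4.3.3, in 1 robust quasi-likelihood fit of all 3 groups (common biological coefficient of variation 0.193). Tests were two-sided, with Benjamini-Hochberg adjustment over all genes and 0.05 as threshold, and the script was tested on simulated data. CPM values are TMM-scaled, and log2 CPM values used a prior count of 2. Totals of 7640172 to 12927411 counts leave genes near 1 CPM imprecise. The genes, lists and naming rule were chosen with earlier results of these data known. All 10 imprinted growth genes are named, with up to 5 genes of smallest p from each other list and the 5 most like H19. Alternatives were other scalings, filters and tools (DESeq2 1.42.0, voom of limma 3.58.1), non-robust dispersion, 2-group fits, a replicate block, dropping ribosomal and mitochondrial genes, and leaving out each library. DESeq2 and the fit without a filter took up all genes with any count, not only the 17168. The numbers of genes called there are thus given without a share. Correlations were computed on log2 CPM and are given without tests, and those with marker lists make 90 pairs of gene and list. The reference (GRCm38, GENCODE M21, RefSeq) is of another build than the files and was matched by gene identifier or symbol for lengths, overlaps and sequences alone.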

Additional observations from a re-analysis of the deposited data

How the results depend on the processing

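Counts of called genes moved widely, and of 513 alternative values of the members' log2 differences 2 moved by more than the SD between replicates, both for Mest without NoUVB 2. Of the 27 log2 differences, 19 kept their sign in all alternatives and 8 did not. For UVB-hCOL3A1 against UVB-Saline, with 0 genes called, there were 30 with library size alone (16 higher, 14 lower), 106 without a filter, 74 with the replicate block, 173 in DESeq2 and 0 to 78 with single libraries left out (78 without UVB-Saline 3, 1 without UVB-Saline 1). Members called were 1 without a filter, with the block and in DESeq2, in each case Grb10. For UVB-hCOL3A1 against NoUVB, with 7 called, all higher, there were 159 with library size alone (115 higher, 44 lower), 178 without a filter, 1 with non-robust dispersion, 118 with the block, 394 in a fit of the 2 groups, 0 in limma voom, 269 in DESeq2 and 0 to 242 with single libraries left out (144 without UVB-Saline 1, 242 without UVB-Saline 3, 1 without UVB-Saline 2, 3 without UVB-hCOL3A1 3 and 0 without any 1 NoUVB library or UVB-hCOL3A1 1 or 2). Members called were 2 with library size alone (H19 and Igf2), 3 without a filter (Grb10, Meg3 and Igf2), 2 with the block (Grb10 and Igf2), 1 in the fit of the 2 groups (Igf2), 4 in DESeq2 and 0 to 1 with single libraries left out (Igf2 without UVB-Saline 1 or 3). For UVB-Saline against NoUVB, with 3 called, all lower, there were 100 with library size alone (61 higher, 39 lower), 73 without a filter, 61 with the block, 96 in DESeq2 and 0 to 12 with single libraries left out (12 without UVB-Saline 1, 6 without NoUVB 3, 5 without UVB-Saline 3, 1 without NoUVB 2 or UVB-hCOL3A1 3 and 0 without NoUVB 1 or UVB-Saline 2). Members called were 1 with library size alone (Igf2) and 2 without a filter, with the block and in DESeq2 (Igf2 and Cdkn1c). The cause was not tested.

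Library size alone shifted the median of all genes to -0.12 for UVB-hCOL3A1 against NoUVB, and the members' median there to -0.12, against 0.10; leaving out single libraries gave -0.06 to 0.70. For UVB-Saline against NoUVB that range was -0.75 to 0.06, and for UVB-hCOL3A1 against UVB-Saline 0.39 to 0.65. Replicate numbers were not taken as pairing the samples: correlations of deviations of same-numbered libraries were 0.018 to 0.41, not all over 0.1, and 6 of 9 libraries deviated most like one of the same number. Igf2, Mest, Cdkn1c and Ndn, and also Mirg, Rtl1 and Dio3, rest on low counts, which limits their precision.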
